A study of Mus musculus with 6 samples.

Results

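The genes described here are 10 mouse genes of natural killer (NK) cells, namely 3 cytotoxic granule genes (Gzma, Gzmb and Prf1), the granule membrane protein gene Nkg7, 5 surface receptor genes (Klrb1c, Ncr1, Klrd1, Klrk1 and Il2rb) and the transcription factor gene Eomes. They were chosen by symbol, and all 10 were among the 21847 genes of the deposited count table. RNA-seq libraries were made from sorted mouse spleen cells that the labels call macrophages, with 3 Qtracker positive libraries and 3 Qtracker negative libraries numbered as pairs. Qtracker is a fluorescent particle label, and here it had been loaded into human cord tissue mesenchymal stromal cells (MSCs), so the labels give Qtracker positive cells as those that engulfed MSCs and Qtracker negative cells as those that did not. Both groups came from splenocytes depleted of T cells, which were cultured for 3 days on the plated MSCs, and both were sorted as CD11b+ cells. One label field gives the second gate as Ly6G- and another as Ly6C-. The strain, age and sex of the animals are not given in the labels, nor is a group without MSCs, so each comparison is between sorted fractions of the same cultures. The labels call the triplicates biological and paired but name no separate animals or cultures, so a p-value here is about the scatter of these 6 libraries, part of which may be technical.

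NK cells are lymphocytes that kill target cells by releasing granules. Perforin opens the target membrane to granzymes, which are serine proteases that cleave proteins inside the target. Release is set by activating receptors such as NKp46 and NKG2D and by inhibitory receptors that bind MHC class I, and interleukin-15 acting through the interleukin-2 receptor β chain keeps NK cells alive and armed. Mature NK cells of the mouse spleen carry CD11b, the surface protein that the sort selected on, and macrophages carry it too.

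Total counts ran between 42490705 and 55506993 in the Qtracker positive libraries and between 33943090 and 44061187 in the Qtracker negative libraries. Libraries of replicate 1 stood apart. Over the tested genes, the mean chi-square for a difference between 2 replicates, which counting noise alone would place near 1, was 21.2 between Qtracker positive replicates 2 and 3 and 4.31 between Qtracker negative replicates 2 and 3, but 222.1 or more in each pair that held replicate 1. The label macrophage was checked against 10 macrophage markers, whose summed level was 29067 to 38510 CPM (reads of a gene per 1e6 reads, on TMM-scaled totals) in Qtracker positive libraries, against 1265 CPM in Qtracker negative replicate 1 and 15205 and 15376 CPM in the other Qtracker negative libraries. The markers of other cell types are given after the results, since several moved with the groups.

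All 10 NK genes had low levels in the Qtracker positive libraries. Their summed level was 6.13, 7.09 and 1.88 CPM in Qtracker positive replicates 1, 2 and 3, against 100.2, 22.6 and 20.6 CPM in Qtracker negative replicates 1, 2 and 3. Without Nkg7 the sums were 4.73, 1.10 and 1.01 CPM in Qtracker positive libraries, against 94.7, 17.0 and 16.3 CPM in Qtracker negative libraries. In 9 of 10 genes all 3 Qtracker positive libraries lay below all 3 Qtracker negative libraries, a separation seen in 24.5% of all genes in the table. The exception was Nkg7. In these bulk samples, fewer cells of a type and less RNA per cell cannot be told apart.

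Of the 10 genes, 9 passed the filter on low counts and were tested with edgeR's quasi-likelihood test, with the replicate number as a block and Benjamini-Hochberg adjustment over 14605 genes. At an adjusted p under 0.05, 8 of the 9 were lower in Qtracker positive libraries, namely Gzma, Gzmb, Klrb1c, Ncr1, Klrd1, Klrk1, Il2rb and Eomes. Over all tested genes, 16.3% were lower and 18.5% were higher. The filter kept a gene that reached 0.231 CPM (before TMM scaling) in 3 libraries, and Gzma, Ncr1, Klrd1 and Eomes reached it in no Qtracker positive library, so these 4 were kept through the Qtracker negative libraries alone. Without replicate 2 the count was 2 (Gzmb and Il2rb), where 1.18% of all genes were lower. Without replicate 3 edgeR called 0 members and 0.00% of all genes lower. There 8 of 10 members had an unadjusted p under 0.05, against 4209 of 14803 genes in either direction. On the same 4 libraries DESeq2 called 8 members lower (12.0% of all genes) and limma-voom 4 (4.18%). Without the replicate block 6 members were lower, against 20.9% of all genes, and DESeq2 on all libraries called 9, against 25.1%. The log2 fold changes of all 9 tested genes stayed negative under each alternative that was run.

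**Figure D1:**
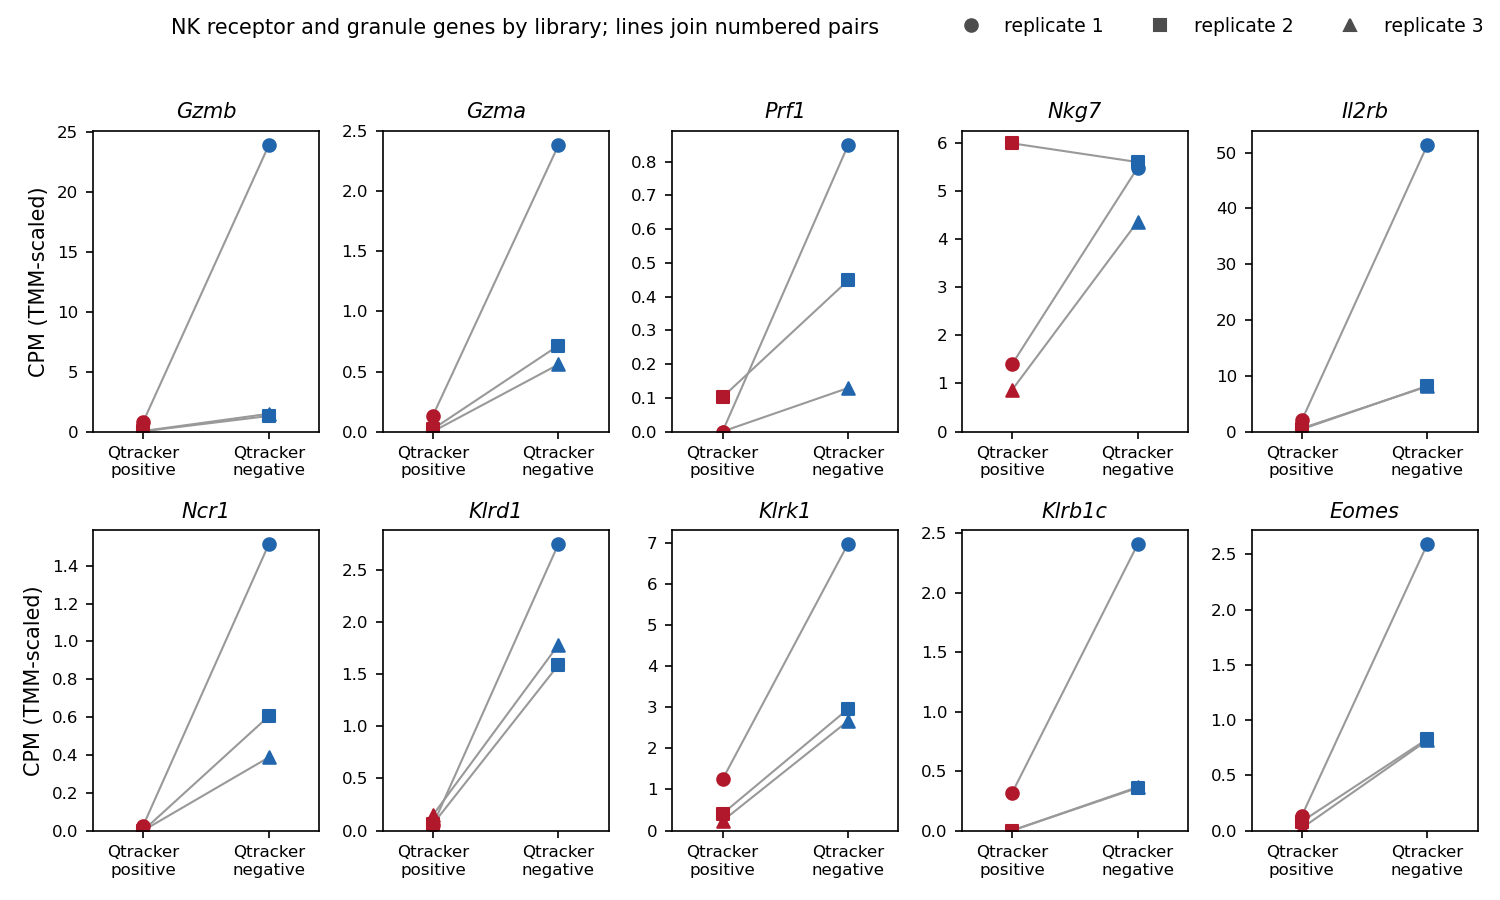
Levels of the 10 NK genes in CPM on TMM-scaled totals (vertical axes from 0, a scale for each gene), with Qtracker positive libraries on the left and Qtracker negative libraries on the right, and lines joining numbered pairs. Each line climbs towards the Qtracker negative library except that of Nkg7 replicate 2, where 5.99 CPM stood against 5.60 CPM, and Gzmb and Il2rb show 1 Qtracker negative library, replicate 1, far above the others.

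Gzmb encodes granzyme B, the protease that cleaves caspase substrates after aspartate, and lies on chromosome 14 from 56258838 to 56262260 on the minus strand of mm10. It had 0.819, 0.0204 and 0.0423 CPM in Qtracker positive libraries, from 31, 1 and 2 counts, against 23.9, 1.30 and 1.48 CPM in Qtracker negative libraries, from 1043, 58 and 69 counts. All 3 Qtracker positive libraries were below all 3 Qtracker negative ones, and within each group replicate 1 was the highest. The mean level was 0.294 ± 0.455 CPM in Qtracker positive libraries and 8.90 ± 13.0 CPM in Qtracker negative libraries (SD, n = 3 each). Its log2 fold change was -5.09 ± 0.32 (SE, edgeR adjusted p = 0.00721). Without the replicate block the adjusted p was 0.0711. Gzmb shares 1.35% of the 31-base stretches of its exons with Gzmc, so few reads could be split between them.

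Gzma encodes granzyme A, a protease with trypsin-like specificity, on chromosome 13 from 113093825 to 113100981 on the minus strand. Its levels were 0.132, 0.0204 and 0 CPM in Qtracker positive libraries and 2.38, 0.717 and 0.559 CPM in Qtracker negative libraries. The groups did not overlap, and the highest Qtracker positive library held 5 counts while the lowest Qtracker negative one held 26. The log2 fold change was -4.85 ± 0.74 (SE, edgeR adjusted p = 0.0212).

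Prf1 encodes perforin, the pore-forming protein, on chromosome 10 from 61297833 to 61304680 on the plus strand. Counts were 0, 5 and 0 in Qtracker positive libraries and 37, 20 and 6 in Qtracker negative libraries, or 0.0339 ± 0.0588 CPM and 0.475 ± 0.361 CPM (SD, n = 3 each). The groups did not overlap, but the gap between them was 1 count. Prf1 did not pass the filter. In a fit with no filter its log2 fold change was -3.85 ± 1.28 (SE, edgeR adjusted p = 0.109), so the difference was not past the threshold at this depth.

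Nkg7 encodes a membrane protein of cytotoxic granules that granule release needs, on chromosome 7 from 43437073 to 43438249 on the plus strand. Its levels were 1.40, 5.99 and 0.866 CPM in Qtracker positive libraries and 5.48, 5.60 and 4.36 CPM in Qtracker negative libraries. Qtracker positive replicate 2 was above all 3 Qtracker negative libraries, and the other Qtracker positive libraries were below them. The mean was 2.75 ± 2.82 CPM in Qtracker positive libraries and 5.15 ± 0.682 CPM in Qtracker negative libraries (SD, n = 3 each), with a log2 fold change of -1.41 ± 0.62 (SE, edgeR adjusted p = 0.153). DESeq2 placed it past the threshold with an adjusted p of 0.0417. Without replicate 2 the log2 fold change was -2.14 (edgeR adjusted p = 0.102). Of the other members only Prf1, with 5 counts, was also highest in replicate 2 of the Qtracker positive group. The neighbouring gene Etfb was not, with 71, 65 and 47 counts in Qtracker positive libraries and 62, 78 and 41 counts in Qtracker negative libraries. None of the 907 stretches of 31 bases in the exons of Nkg7 occurs in another gene.

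Reads of the 3 granule genes divided differently between replicates. Gzmb held 86.1% of the Gzma, Gzmb and Prf1 counts in Qtracker positive replicate 1 (95% exact Clopper-Pearson interval 70.5 to 95.3%, 36 counts). In Qtracker negative libraries its share was 88.1% in replicate 1 (86.1 to 89.9%, 1184 counts), 52.7% in replicate 2 (43.0 to 62.3%, 110 counts) and 68.3% in replicate 3 (58.3 to 77.2%, 101 counts). Gzmb thus led the granule reads in replicate 1 of both groups, and its share in Qtracker negative replicate 1 lay above the intervals of the other Qtracker negative libraries. Qtracker positive replicates 2 and 3 had 7 and 2 granule counts, too few for a share. These intervals and the ones on ratios of counts given with the pairs cover counting error only.

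Promoters are shown for Gzmb, the granule gene with the most reads, and for Nkg7 and Prf1, the granule genes that were not called. The sequence is the 250 bases before the RefSeq start of the gene in GRCm38.p6, 5′ to 3′ on the strand of the gene, at chr14:56262335-56262584 on the minus strand for Gzmb, chr7:43436888-43437137 on the plus strand for Nkg7 and chr10:61297586-61297835 on the plus strand for Prf1. Capitals mark matches, on either strand, to 3 motifs of factors known to act in NK cells: GGTGTGA for T-box factors such as Eomes, AGGAAGT for ETS factors such as Ets1, and TTCNNNGAA for STAT factors.
Gzmb: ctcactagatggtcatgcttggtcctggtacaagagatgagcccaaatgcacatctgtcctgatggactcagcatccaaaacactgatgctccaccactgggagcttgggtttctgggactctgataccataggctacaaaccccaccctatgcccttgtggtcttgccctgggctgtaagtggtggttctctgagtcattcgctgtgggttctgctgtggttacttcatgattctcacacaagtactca
Nkg7: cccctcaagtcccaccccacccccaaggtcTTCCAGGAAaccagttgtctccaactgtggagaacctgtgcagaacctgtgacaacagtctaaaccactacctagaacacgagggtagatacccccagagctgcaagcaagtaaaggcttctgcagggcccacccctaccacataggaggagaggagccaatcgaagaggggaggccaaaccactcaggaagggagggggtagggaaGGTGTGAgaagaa
Prf1: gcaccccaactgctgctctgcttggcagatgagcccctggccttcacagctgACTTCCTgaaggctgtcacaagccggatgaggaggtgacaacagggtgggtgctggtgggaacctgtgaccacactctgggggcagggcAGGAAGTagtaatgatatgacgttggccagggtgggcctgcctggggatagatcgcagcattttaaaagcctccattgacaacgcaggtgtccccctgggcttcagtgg
The T-box letters stand 13 bases upstream of the RefSeq start of Nkg7 and the STAT letters 220 bases upstream. The ETS letters occur 198 and 109 bases upstream of the RefSeq start of Prf1. Gene coordinates in this report are from GENCODE, whose starts differ from those of RefSeq. The Nkg7 window runs past the GENCODE start at 43437073, so the T-box letters lie inside the GENCODE gene. For Gzmb the window begins beyond the GENCODE gene, which ends at 56262260. RefSeq promoters were matched for 8 of the 10 genes, all except Klrd1 and Il2rb, and each motif was found in 1 of the 8. Of 32851 promoters of the same length, 3.33% held the T-box letters, 7.69% the ETS letters and 7.02% the STAT letters. A match is a description of these letters only.

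Il2rb encodes the β chain shared by the interleukin-2 and interleukin-15 receptors, on chromosome 15 from 78479256 to 78495271 on the minus strand. It had the most counts of the receptor genes, with 2.01, 0.407 and 0.570 CPM in Qtracker positive libraries and 51.3, 8.17 and 8.08 CPM in Qtracker negative libraries. No Qtracker positive library reached a Qtracker negative one, and replicate 1 of the Qtracker negative group was 6.32 times the mean of replicates 2 and 3. The log2 fold change was -4.28 ± 0.25 (SE, edgeR adjusted p = 0.00674).

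Ncr1 encodes NKp46, the activating receptor most used to define NK cells in the mouse, on chromosome 7 from 4337724 to 4345164 on the plus strand. It had 1, 0 and 0 counts in Qtracker positive libraries and 66, 27 and 18 counts in Qtracker negative libraries, or 0.00881 ± 0.0153 CPM and 0.835 ± 0.598 CPM (SD, n = 3 each). The single read in Qtracker positive replicate 1 was the whole signal of that group. Summed over the libraries, 1 count stood against 111, a level 110.5-fold lower in Qtracker positive libraries with an exact 95% counting interval of 19.4 to 4405. edgeR gave a log2 fold change of -6.35 ± 0.78 (SE, adjusted p = 0.0154), the size of which rests on that single read.

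Klrd1 encodes CD94, which pairs with NKG2 proteins to bind non-classical MHC class I, on chromosome 6 from 129591782 to 129598775 on the plus strand. Its levels were 0.0529, 0.0611 and 0.148 CPM in Qtracker positive libraries and 2.75, 1.59 and 1.78 CPM in Qtracker negative libraries. The groups did not overlap, and Klrd1 varied little between Qtracker negative replicates, with 2.04 ± 0.622 CPM (SD, n = 3). The log2 fold change was -4.51 ± 0.58 (SE, edgeR adjusted p = 0.0161).

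Klrk1 encodes NKG2D, the activating receptor for stress-induced ligands, on chromosome 6 from 129610323 to 129623864 on the minus strand. It had 1.24, 0.407 and 0.232 CPM in Qtracker positive libraries and 6.97, 2.96 and 2.66 CPM in Qtracker negative libraries. Every Qtracker positive library was below every Qtracker negative one, and replicate 1 was the highest in both groups. Its log2 fold change of -2.92 ± 0.34 (SE, edgeR adjusted p = 0.0146) was the smallest among the 8 genes called.

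Klrb1c encodes NK1.1, a lectin-like receptor used to mark NK cells in some mouse strains, on chromosome 6 from 128778485 to 128789215 on the minus strand. Counts were 12, 0 and 0 in Qtracker positive libraries, against 105, 16 and 17 in Qtracker negative libraries. The lowest Qtracker negative library was only 4 counts above the highest Qtracker positive one. The log2 fold change was -4.11 ± 1.02 (SE, edgeR adjusted p = 0.04998), just inside the threshold, and the adjusted p was 0.143 without the replicate block and 0.0585 with no filter. Klrb1c is uncertain for a second reason, since 21.2% of its 31-base exon stretches occur in 4 other genes, among them the overlapping gene Gm44511, which is not in the count table.

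Eomes encodes the T-box factor that NK cell maturation needs, on chromosome 9 from 118478212 to 118486132 on the plus strand. Levels were 0.132, 0.0815 and 0.0211 CPM in Qtracker positive libraries and 2.59, 0.829 and 0.816 CPM in Qtracker negative libraries. The groups did not overlap, and the lowest Qtracker negative library was above the highest Qtracker positive one by more than the spread within the Qtracker positive group. The log2 fold change was -4.12 ± 0.53 (SE, edgeR adjusted p = 0.0163). An antisense gene, Gm33460, overlaps the span of Eomes, and the labels do not say that the counting kept strands apart. Whether reads of Gm33460 were counted for Eomes was not tested.

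Each numbered pair was also compared alone. Gzmb was lower in the Qtracker positive library by 29.2-fold in pair 1 (exact 95% counting interval 20.4 to 43.2), 63.8-fold in pair 2 (11.0 to 2562) and 35.1-fold in pair 3 (9.35 to 295). Il2rb was lower by 25.5-fold (20.3 to 32.5), 20.1-fold (12.8 to 33.2) and 14.2-fold (9.58 to 21.8) in pairs 1, 2 and 3, and Klrk1 by 5.61-fold (4.12 to 7.80), 7.26-fold (4.51 to 12.3) and 11.5-fold (6.19 to 23.6). For each of these 3 genes the counting intervals of the 3 pairs overlapped, although the levels differed by replicate. Klrd1 was lower by 52.0-fold (14.1 to 435), 26.0-fold (8.55 to 129) and 12.1-fold (5.60 to 30.9), and Eomes by 19.6-fold (8.16 to 61.5), 10.2-fold (3.65 to 39.3) and 38.6-fold (6.53 to 1566). Gzma was lower by 18.0-fold (7.49 to 56.7) in pair 1 and 35.2-fold (5.88 to 1433) in pair 2, Prf1 by 4.40-fold in pair 2 (5 against 20 counts), Klrb1c by 7.59-fold (4.17 to 15.2) in pair 1 and Ncr1 by 57.2-fold (9.92 to 2295) in pair 1. Where a Qtracker positive library held 0 counts, a floor of 3 counts in that library bounds the fold: Ncr1 was at least 9.90-fold lower in pair 2 and at least 6.10-fold lower in pair 3, Klrb1c at least 5.86-fold and at least 5.76-fold lower in the same pairs, Gzma at least 8.81-fold lower in pair 3, and Prf1 at least 10.7-fold lower in pair 1 and at least 2.03-fold lower in pair 3. Nkg7 was 3.91-fold lower (2.89 to 5.37) in pair 1 and 5.03-fold lower (3.58 to 7.23) in pair 3. In pair 2 its ratio of Qtracker negative over Qtracker positive was 0.935 (0.787 to 1.11), an interval that holds 1.

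**Figure D2:**
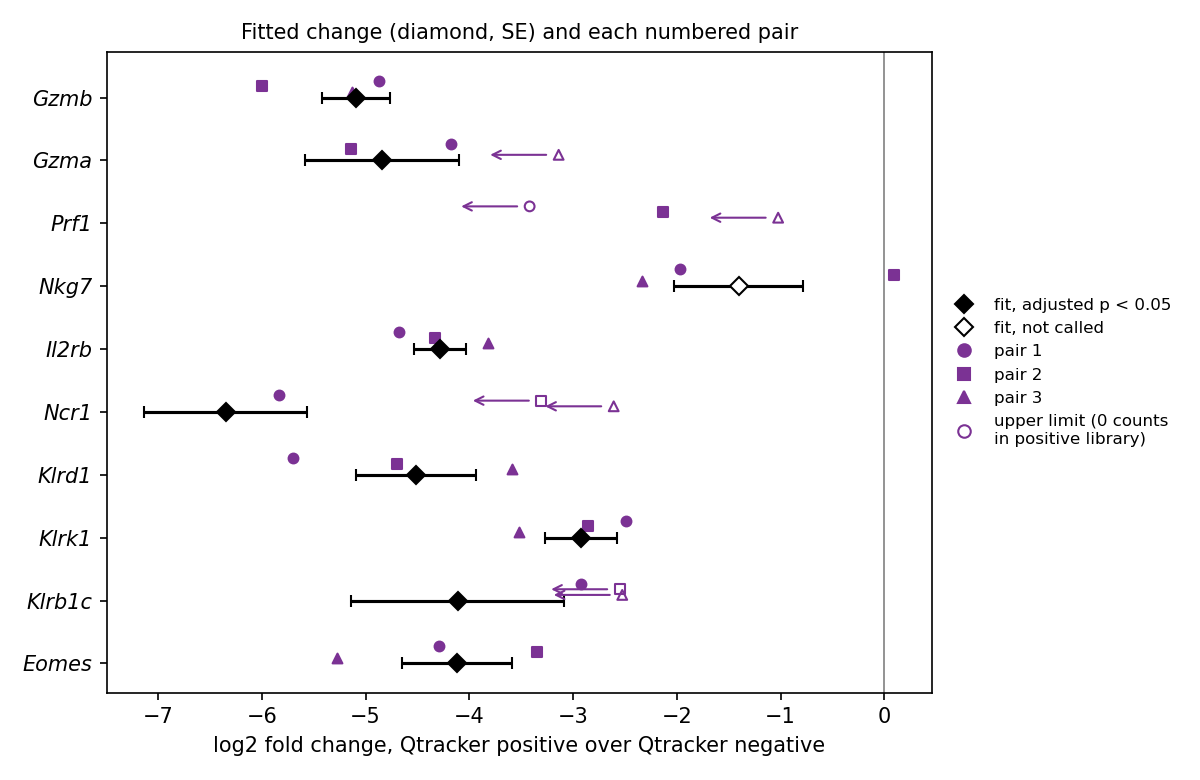
Log2 fold change of each gene, Qtracker positive over Qtracker negative, as fitted by edgeR with its SE (diamonds) and in each numbered pair (small symbols, open with an arrow where the Qtracker positive library held 0 counts and only a limit can be given). All diamonds lie left of 0, the open diamond is Nkg7 at -1.41, which was not called, and Prf1 has no diamond because it was not tested.

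The genes did not vary alike between the Qtracker negative libraries. In 9 of 10 genes replicate 1 was the highest, and its level over the mean of replicates 2 and 3 was 17.2 for Gzmb, 6.66 for Klrb1c and 6.32 for Il2rb. The ratio was 3.74 for Gzma, 3.15 for Eomes, 3.05 for Ncr1, 2.94 for Prf1, 2.48 for Klrk1 and 1.63 for Klrd1, and 1.10 for Nkg7. Granzyme B thus differed between Qtracker negative libraries far more than CD94 or Nkg7 did. Relative to Il2rb reads, Gzmb reads were 0.408, 0.05 and 0.0741 in Qtracker positive libraries and 0.466, 0.159 and 0.184 in Qtracker negative libraries, highest in replicate 1 of each group. Replicate 1 of the Qtracker negative group also held Gzmc, a granzyme of activated killer cells named here after its values were seen. Gzmc had 1, 0 and 0 counts in Qtracker positive libraries and 165, 5 and 8 counts in Qtracker negative libraries, and it did not pass the filter.

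**Figure D3:**
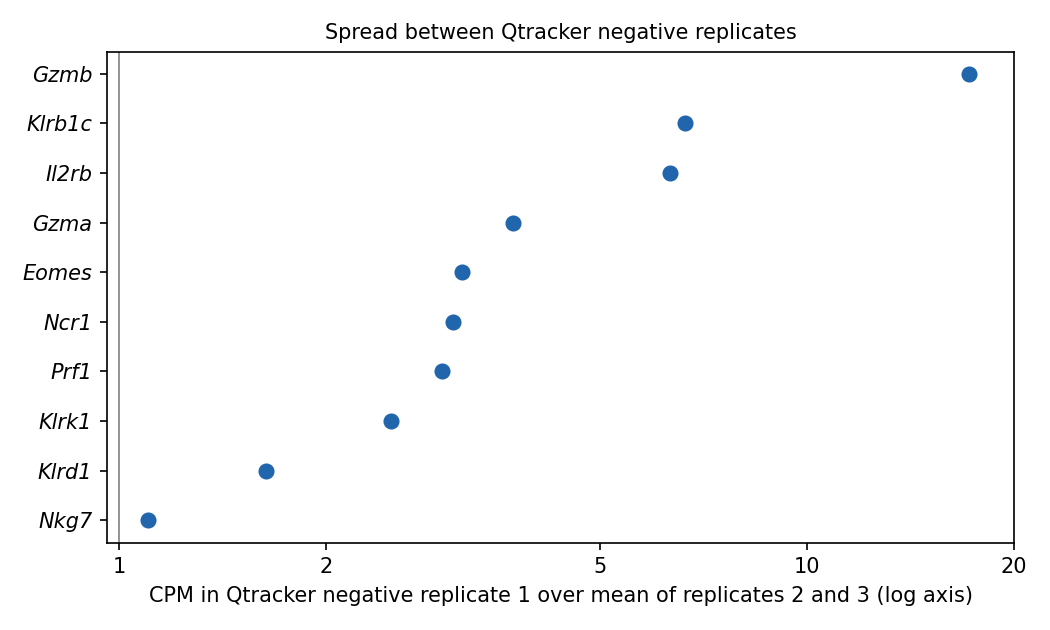
Level of each gene in Qtracker negative replicate 1 divided by the mean of Qtracker negative replicates 2 and 3 (log axis, 1 point a gene). The ratio runs from 1.10 for Nkg7 to 17.2 for Gzmb, so the replicates differ most in granzyme B.

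Per kilobase of exon, the order of the genes changed with the library. Nkg7 stood first in each Qtracker positive library, at 1.53, 6.55 and 0.948 CPM per kb. In Qtracker negative libraries Gzmb was first in replicate 1 at 16.7 CPM per kb but only in place 4 in replicates 2 and 3, where Nkg7 was first at 6.12 and 4.77 CPM per kb, and Il2rb was second in all 3. Averaged over Qtracker negative libraries, Gzmb had 6.20 ± 9.06, Nkg7 5.63 ± 0.747 and Il2rb 5.25 ± 5.82 CPM per kb (SD, n = 3), which do not differ beyond their spread. Next came Klrd1 with 1.59 ± 0.486 and Gzma with 1.21 ± 1.01 CPM per kb. Klrk1 with 0.584 ± 0.335, Ncr1 with 0.542 ± 0.388, Klrb1c with 0.352 ± 0.399, Eomes with 0.340 ± 0.246 and Prf1 with 0.184 ± 0.140 CPM per kb followed. Ncr1 was above Klrb1c and Eomes above Prf1 in each Qtracker negative library. The order of Klrk1 and Ncr1, and that of Klrb1c and Eomes, changed with the library.

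Across the 6 libraries, the log2 level of each gene was set against the mean of the other 9 as a description, with both groups and their depth shared by all points. Pearson's r was highest for Gzma at 0.996, was 0.844 for Prf1, and was lowest for Nkg7 at 0.575. The 5 genes most like the mean of the 10, of 11008 compared, were Gle1, St14, Cdyl2, Gm16675 and Lin37, with r between 0.996 and 0.998. St14, for example, had 8.80, 6.23 and 5.28 CPM in Qtracker positive libraries and 53.6, 25.4 and 24.5 CPM in Qtracker negative libraries, with replicate 1 highest in each group.

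Genes around the 10 in the same pathway were counted in lists, each read against the 34.9% of all tested genes that were called in either direction and the median log2 fold change of all tested genes, -0.01. Some tested genes passed the filter through the Qtracker negative libraries alone, which helps to set the sign of their list's median: 5 of 8 lectin-like receptors, 3 of 13 other surface receptors, 2 of 14 adaptors and kinases, 2 of 12 transcription factors, 1 of 7 granule proteins and 1 of 6 cytokines. Among other granzymes and granule proteins, 7 of 12 in the table were tested, 2 were lower, 1 was higher and 4 were not called (median -0.69). Ctsw, a cathepsin of killer lymphocytes, had 0.0843 ± 0.110 CPM in Qtracker positive libraries and 1.68 ± 1.43 CPM in Qtracker negative libraries, with a log2 fold change of -4.59 ± 0.51 (SE, edgeR adjusted p = 0.0135). Cst7, the inhibitor cystatin F, was lower by -1.28 ± 0.19 on the log2 scale (SE, adjusted p = 0.0197). The gene that was higher was Lamp1, a lysosomal membrane protein found in many cells, at 2.78 ± 0.36 (SE, adjusted p = 0.0161). Ctsc, the peptidase that activates granzymes, had 1.19 ± 0.36 (SE, adjusted p = 0.0704).

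For the granule secretion machinery, all 9 genes in the table were tested, 3 were lower and 3 were higher (median -0.76). Coro1a, an actin regulator, was lower with a log2 fold change of -1.69 ± 0.16 (SE, edgeR adjusted p = 0.0109), as were Unc13d, which primes granules for fusion, at -1.03 ± 0.17 (adjusted p = 0.0251), and Rab27a. Higher were Stx7, a SNARE protein of endosomes, at 1.05 ± 0.18 (adjusted p = 0.0243), and Ap3b1 and Vamp8. With scaling by library totals alone, where the median of all genes was -0.36, only 1 gene of this list was higher, against 10.8% of all genes. Lyst, the gene of Chédiak-Higashi syndrome, had -0.76 ± 0.43 (adjusted p = 0.228).

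Of the other NK lectin-like receptors, 8 of 19 in the table passed the filter, 2 were lower and 6 were not called. The count of 2 depended on the tool, since DESeq2 called 7 lower and limma-voom, the authors' table and a fit without the replicate block 6 each. The shares of all genes lower in these fits were 25.1, 19.5, 17.3 and 20.9% in that order. The genes that were lower were Klrb1b, with 0.828 ± 0.430 CPM in Qtracker positive libraries and 3.02 ± 0.585 CPM in Qtracker negative libraries and a log2 fold change of -1.96 ± 0.35 (SE, edgeR adjusted p = 0.0271), and Klri1 at -3.35 ± 0.78 (adjusted p = 0.0439). Klri2 at -4.34 ± 1.13 (adjusted p = 0.0547) and Klrb1f at -3.28 ± 1.50 (adjusted p = 0.164) were not called. Of the 19, 8 had 0 counts in all Qtracker positive libraries, and the share of all genes at 0 there was not counted. Only 2 of these, Klra8 and Klra4 of the Ly49 family, passed the filter, so the 0 counts of the others say little. Klra8 and Klra4 had adjusted p = 0.0571 and 0.0589. Against a floor of 3 counts over the group they were at least 22.9-fold and at least 23.2-fold lower, and Ly49 genes are near-identical copies whose reads the counting could split.

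In the list of other NK surface receptors, 13 of 15 were tested, 8 were lower and 5 were not called (median -2.94). Cd27 was lower with a log2 fold change of -3.18 ± 0.27 (SE, edgeR adjusted p = 0.00977), as were Cd7 at -5.22 ± 0.48 (adjusted p = 0.0107) and Crtam at -4.04 ± 0.46 (adjusted p = 0.0141). Cd7 had 0.291, 0.122 and 0.0634 CPM in Qtracker positive libraries and 6.56, 4.64 and 4.86 CPM in Qtracker negative libraries. Fcgr3, the Fc receptor CD16 that macrophages also carry, had 744 ± 99.4 CPM in Qtracker positive libraries and 334 ± 229.7 CPM in Qtracker negative libraries (SD, n = 3 each, edgeR adjusted p = 0.221). Cd244a, the receptor for CD48, had -0.65 ± 0.28 (adjusted p = 0.149). Slamf7, also not called, went the other way at 3.62 ± 1.52 (adjusted p = 0.139), with all Qtracker positive libraries above all Qtracker negative ones. DESeq2 called 8 of this list lower and 1 higher (25.1 and 23.4% of all genes). A fit without replicate 1 called 11 lower and 2 higher (35.8 and 37.1%).

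Of receptor adaptors and kinases, all 14 in the table were tested, 8 were lower and 6 were not called (median -1.90). Lck, a kinase of T and NK cells, was lower with a log2 fold change of -2.86 ± 0.43 (SE, edgeR adjusted p = 0.0204) as was the CD3ζ chain gene Cd247 at -2.68 ± 0.45 (adjusted p = 0.0243). Tyrobp, the adaptor DAP12 that macrophages use as well, had 931 ± 26.2 CPM in Qtracker positive libraries and 389 ± 268 CPM in Qtracker negative libraries (SD, n = 3 each, edgeR adjusted p = 0.154). Syk, a kinase shared with myeloid cells, had a log2 fold change of -0.62 ± 0.27 (adjusted p = 0.151).

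Among receptors and signalling proteins of interleukins 2, 15, 12 and 18, all 15 were tested, 7 were lower, 1 was higher and 7 were not called (median -0.68). Stat4, which carries the interleukin-12 signal, had 11.9, 12.8 and 13.1 CPM in Qtracker positive libraries and 121.9, 80.8 and 85.8 CPM in Qtracker negative libraries, with a log2 fold change of -2.91 ± 0.21 (SE, edgeR adjusted p = 0.00790). Il12b, a subunit of interleukin-12, was at -3.11 ± 0.23 (adjusted p = 0.00860) and Il2ra, the α chain of the interleukin-2 receptor, at -3.55 ± 0.34 (adjusted p = 0.0110). The gene that was higher was Il18, a cytokine that activates NK cells, which had 11, 85 and 131 counts in Qtracker positive libraries and 0 in all Qtracker negative libraries. Its level was at least 76.0-fold higher against a floor of 3 counts over the group (edgeR adjusted p = 0.0408). Il18 passed the filter through the Qtracker positive libraries alone, which favours this direction. Il2rg, which pairs with the Il2rb product, had 174 ± 21.4 CPM in Qtracker positive libraries and 158 ± 56.9 CPM in Qtracker negative libraries (SD, n = 3 each, adjusted p = 0.649), and Jak1 had a log2 fold change of -0.36 ± 0.15 (adjusted p = 0.136).

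Of NK transcription factors, 12 of 14 were tested, 7 were lower, 1 was higher and 4 were not called (median -2.48). Ets1 had 25.8, 42.1 and 38.7 CPM in Qtracker positive libraries and 619, 414 and 424 CPM in Qtracker negative libraries, with a log2 fold change of -3.77 ± 0.36 (SE, edgeR adjusted p = 0.0109). Klf2, a regulator of lymphocyte trafficking, was at -2.28 ± 0.21 (adjusted p = 0.0106). Zeb2, which myeloid cells also express, was higher by 1.90 ± 0.22 (adjusted p = 0.0146). Tbx21, which encodes T-bet, the T-box partner of Eomes, is named for that relation after its values were seen. It had 0.159, 0.285 and 0.190 CPM in Qtracker positive libraries and 8.03, 2.08 and 2.38 CPM in Qtracker negative libraries, so the groups did not overlap (log2 fold change -3.98 ± 0.71, SE, edgeR adjusted p = 0.0272).

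NK effector cytokines included 6 tested genes of 8, of which 3 were lower and 3 were not called (median -1.24). The 3 were the chemokine genes Ccl5 at -3.21 ± 0.37 (SE, edgeR adjusted p = 0.0139) and Xcl1 at -5.67 ± 1.23 (adjusted p = 0.0385), and Lta at -3.13 ± 0.68 (adjusted p = 0.0389). Ccl3, which macrophages also make, had 63.5 ± 44.7 CPM in Qtracker positive libraries and 32.5 ± 8.47 CPM in Qtracker negative libraries (SD, n = 3 each, adjusted p = 0.373). The 3 genes not called, Ccl3, Ccl4 and Tnf, had log2 fold changes of 0.75, 1.55 and 0.65. The list median thus falls in the gap between them and the 3 genes that were lower. Ifng, added after its values were seen, did not pass the filter and had 0.0264, 0 and 0.0423 CPM in Qtracker positive libraries and 2.34, 0.179 and 0.0859 CPM in Qtracker negative libraries.

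Of ligands that NK receptors bind on other cells, 14 were in the table, 12 were tested, 2 were higher and 10 were not called (median 0.61). Pvr, the ligand of the receptors DNAM-1 and TIGIT, had 53.4, 29.6 and 28.6 CPM in Qtracker positive libraries and 14.1, 7.10 and 8.01 CPM in Qtracker negative libraries, with a log2 fold change of 1.94 ± 0.12 (SE, edgeR adjusted p = 0.00709). Cd48, the ligand of the Cd244a product, was higher by 1.27 ± 0.22 (adjusted p = 0.0250). The MHC class I genes H2-D1 at 0.90 ± 0.25 (adjusted p = 0.0610) and H2-K1 at 0.33 ± 0.30 (adjusted p = 0.430) and the C-type lectin ligand gene Clec2i at -1.05 ± 0.28 (adjusted p = 0.0573) were not called. With scaling by library totals alone, 1 ligand gene was higher and 1 was lower (10.8 and 22.7% of all genes). DESeq2 called 5 higher and 1 lower (23.4 and 25.1%), and a fit without the replicate block 4 higher and 1 lower (19.9 and 20.9%).

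All 7 granzyme and cathepsin inhibitors were tested, 3 were higher and 3 were lower (median -1.13). Serpinb6a, an intracellular serpin, had 63.6, 60.8 and 64.5 CPM in Qtracker positive libraries and 11.8, 13.8 and 12.9 CPM in Qtracker negative libraries, with a log2 fold change of 2.30 ± 0.12 (SE, edgeR adjusted p = 0.00643). Cstb, an inhibitor of cathepsins, was at 3.01 ± 0.31 (adjusted p = 0.0119) and Cst3 at 0.88 ± 0.13 (adjusted p = 0.0206). Lower were Serpina3g at -3.12 ± 0.31 (adjusted p = 0.0115), Serpinb6b and Serpinb9b. Serpinb9, the inhibitor of granzyme B and the only gene of the list not called, is named after its values were seen and had a log2 fold change of -1.13 ± 0.34 (adjusted p = 0.0741).

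**Figure D4:**
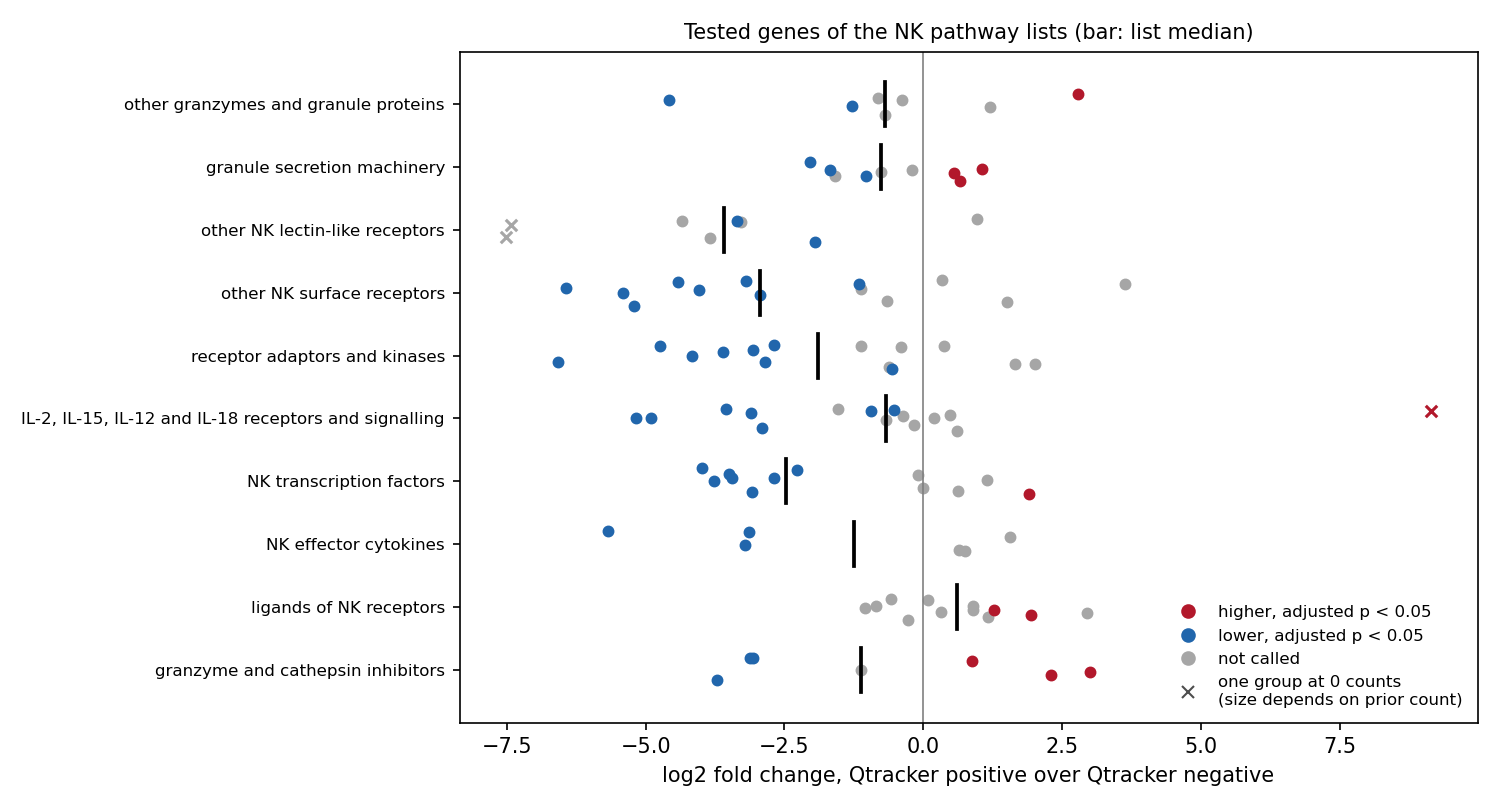
Log2 fold change, Qtracker positive over Qtracker negative, of each tested gene in 10 lists of NK pathway genes, coloured by the edgeR call, with a bar at the median of each list and crosses for genes with 0 counts in all libraries of a group. Of the 8 lectin-like receptors, 5 passed the filter through Qtracker negative libraries alone, and among the other lists the medians lie between -2.94 for other surface receptors and 0.61 for ligands.

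Over these lists and the marker lists of other cell types together, 78 genes were lower and 18 were higher of 157 tested. Of all tested genes, 16.3% were lower and 18.5% higher. Without replicate 1 the counts were 109 and 40, where 35.8% of all genes were lower and 37.1% higher. Without replicate 2 they were 7 and 1, where 1.18% of all genes were lower and 0.917% higher. Without replicate 3 they were 0 and 0, as over all genes. There 84 and 22 of 158 list genes had an unadjusted p under 0.05, against 4209 of 14803 genes in either direction. DESeq2 called 69 and 24 on those libraries, against 12.0% of all genes lower and 10.2% higher.

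Markers of other cell types moved with the groups in the libraries where the NK genes differed. The summed level of 8 B cell markers was 226, 284 and 288 CPM in Qtracker positive libraries and 5496, 1835 and 1901 CPM in Qtracker negative libraries. Of the 8, 7 were lower, against 16.3% of all tested genes. T cell markers need care, since their sum of 43.5, 96.5 and 111.3 CPM in Qtracker positive libraries and 136.8, 25.8 and 27.2 CPM in Qtracker negative libraries was led by Cd28, which was higher in Qtracker positive libraries. Of the 12 markers, 9 were lower, against 16.3% of all tested genes, and 4 without the replicate block, against 20.9%. Without Cd28 the sums were 13.9, 11.6 and 12.0 CPM in Qtracker positive libraries and 128.9, 17.8 and 20.1 CPM in Qtracker negative libraries. Cd3e, a chain of the T cell receptor complex, had 0.846, 0.183 and 0.232 CPM in Qtracker positive libraries and 9.75, 1.84 and 1.29 CPM in Qtracker negative libraries, and Trac was at 0 in Qtracker positive replicates 2 and 3. B and T cell markers, like the NK genes, were thus highest in Qtracker negative replicate 1. Granzymes, perforin, Nkg7, Klrd1, Klrk1, Il2rb and Eomes are also made by cytotoxic T cells.

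Basophil and neutrophil markers had the opposite order between Qtracker negative replicates. Basophil and mast cell markers summed to 9.38, 19.3 and 20.8 CPM in Qtracker positive libraries and 187, 1325 and 1317 CPM in Qtracker negative libraries, with 8 of 9 tested lower. Of these 9, 2 passed the filter through the Qtracker negative libraries alone. Each count of lower markers here stands against 16.3% of all tested genes lower. Neutrophil markers summed to 204, 929 and 915 CPM in Qtracker positive libraries and 1986, 42431 and 42261 CPM in Qtracker negative libraries, with 7 of 8 lower, among them Ly6g with 0.0264, 0 and 0.380 CPM in Qtracker positive libraries and 1.33, 25.9 and 29.2 CPM in Qtracker negative libraries. Both lists were lowest in replicate 1 of the Qtracker negative group, the library in which the NK genes were highest. Plasmacytoid dendritic cell markers, a cell type that can also make granzyme B, summed to 94.3, 111 and 109 CPM in Qtracker positive libraries and 659, 284 and 289 CPM in Qtracker negative libraries, with 4 of 7 tested lower and 1 higher. Of the 7, 1 passed the filter through the Qtracker negative libraries alone. Spib, which B cells also express, led the sums of the Qtracker negative libraries. Without it the sums were 76.1, 81.5 and 83.7 CPM in Qtracker positive libraries and 127.4, 102.8 and 101.0 CPM in Qtracker negative libraries. Tcf4, which was not called, led these, with 83.0, 60.3 and 58.5 CPM in Qtracker negative libraries. In Qtracker negative replicate 1, Ccr9, Cox6a2 and Pacsin1 were highest. Siglech (1.08 against 1.32 and 1.44 CPM) and Runx2 (14.5 against 29.8 and 28.9 CPM) were lowest there. Of macrophage markers, 5 of 10 were higher, against 18.5% of all tested genes, and 5 were not called. DESeq2 called 9 of them higher (23.4% of all genes), limma-voom 7 (20.6%), and a fit without replicate 1 called 9 (37.1%). The part of these cell types in the lower levels of the NK genes was not tested.

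**Figure D5:**
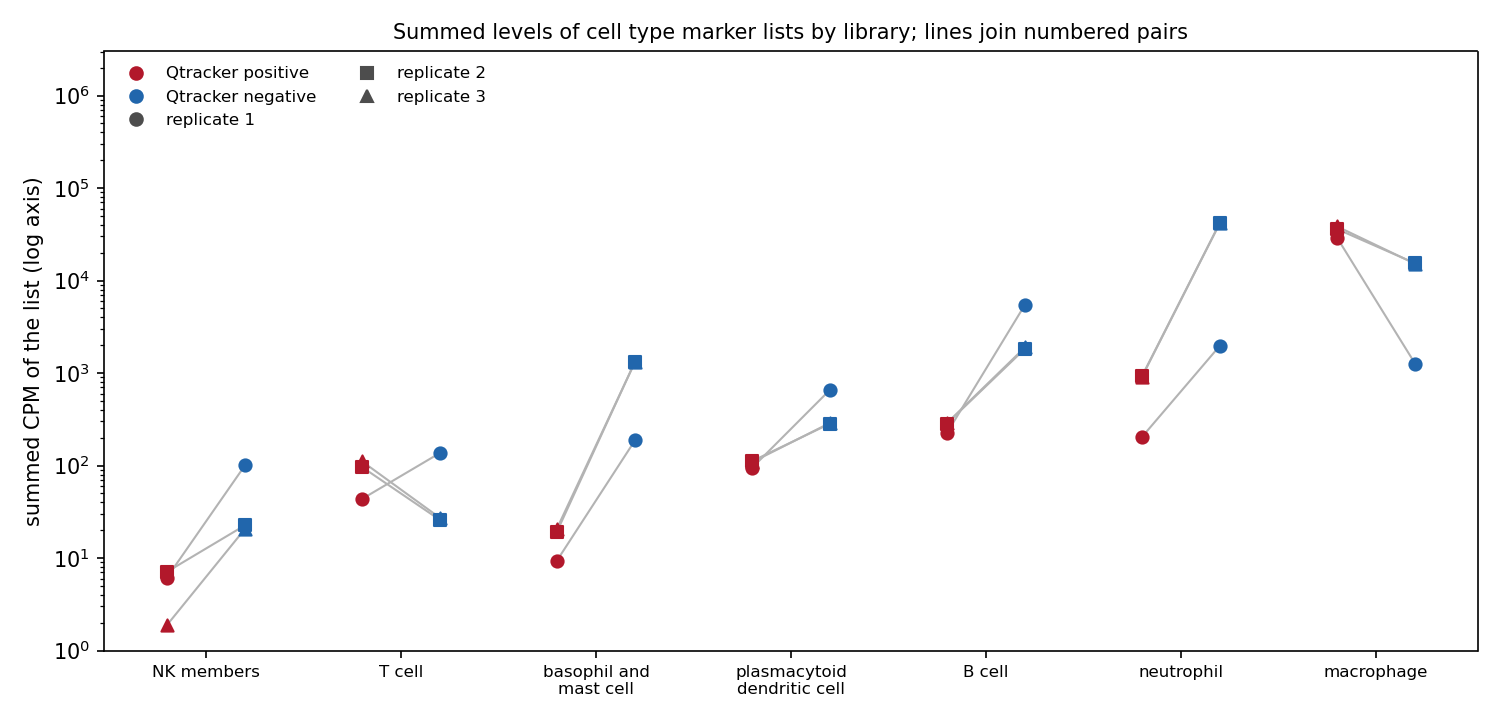
Summed CPM of the 10 NK genes and of 6 marker lists of other cell types (log axis), with Qtracker positive libraries on the left and Qtracker negative libraries on the right of each list, and lines joining numbered pairs. The NK sum of 1.88 to 7.09 CPM in Qtracker positive libraries lies below the 20.6 to 100.2 CPM of Qtracker negative libraries, B cell, basophil, neutrophil and plasmacytoid lists run the same way, and macrophage markers run the other way.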

How the data were processed

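RNA-seq was done on 6 libraries, 3 a group. Per the labels' protocols, RNA was purified on columns and made into stranded libraries. The deposited raw table holds the authors' estimated counts, also called expected counts, as whole numbers, made with Salmon on mm10 after FastQC, per the submitters' processing notes, which give no versions. The authors' normalized table holds a signal whose formula is not stated, and it served only as an alternative, as log2(value + 1) in limma. Symbols, coordinates and exon lengths came from GENCODE M21 (21625 of 21847 identifiers found, 219 genes left without a symbol).

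Genes were filtered by filterByExpr (minimum count 10, minimum total 15), scaled by TMM and tested in edgeR 4.0.16 (R 4.3.3, quasi-likelihood) with the replicate number as a block, since the series calls the triplicates paired. Deviations of same-numbered libraries correlated at 0.198, 0.0769 and 0.158 for replicates 1, 2 and 3, against at most -0.152, 0.116 and 0.147 with another number, so replicate 2 was closer to another number than to its own. Calls used an adjusted p (Benjamini-Hochberg over all tested genes) under 0.05. The SE is the log2 fold change over the root of F. Adjusted p-values printed alone come from this fit. As a check of the code, counts were simulated for 14605 genes with the same scatter for every gene and no difference between replicates. There edgeR called 200 of 200 genes that differed by 4 on the log2 scale and 5 of 14405 that did not. Replicate 1 stood apart in the data, so these counts give no error rate for the 6 libraries. The alternatives were DESeq2 1.42.0, limma-voom (limma 3.58.1), other scalings and filters, no replicate block, and each replicate left out. Further ones were chosen after seeing the data, with replicates 2 and 3 summed and with DESeq2 or limma-voom on reduced libraries. All 10 genes are named, and from each pathway list the 3 tested genes with the lowest p and the 2 with the highest mean CPM, together with the 5 genes most like the mean of the 10. Rab27a, Ap3b1, Vamp8, Klra8, Klra4, Slamf7, Il18, Ccl4, Tnf, Serpinb6b, Serpinb9b, Cd3e, Trac, Cox6a2, Pacsin1, Runx2 and Etfb were named after their values were seen. A further pathway gene that the rule picks is not reported here. Marker lists of other cell types are given by sums and counts, and most of the genes the rule picks there are not named. The members and lists were chosen with earlier results of these data known. Shared sequence was counted as 31-base stretches of GENCODE exons. Promoters came from RefSeq.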

Additional observations from a re-analysis of the deposited data

How the results depend on the processing

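Of the 9 NK genes tested, 8 were called lower with median-of-ratios factors, library totals, limma-voom and the authors' table. The shares of all genes lower were 17.0, 22.7, 19.5 and 17.3% in that order. DESeq2 called 9 of 9, against 25.1% of all genes. With no filter 7 of 10 were called, against 9.20% of all genes. With at least 50 counts in 3 libraries, 4 of the 5 NK genes left were called, against 17.8% of all genes. With no replicate block, the pairing left out, 6 were called, losing Gzmb and Klrb1c, against 20.9% of all genes. Leaving out 1 replicate gave 0 to 8, the 8 being without replicate 1, where 35.8% of all genes were lower. With replicates 2 and 3 summed, the calls were 8 by DESeq2 (12.5% of all genes lower), 4 by limma-voom (4.75%) and 0 by edgeR (0.00%). In that edgeR fit 8 of the NK genes had p under 0.05 before adjustment. Without replicate 3 limma-voom called 4 (4.18%). Over all genes, 2384 were lower and 2707 higher. DESeq2 gave 3665 lower, library totals 1572 higher (67.8% of calls lower, against 46.8%), leaving out 1 replicate 0 to 5352 lower and 0 to 5538 higher, and the summed libraries 0 and 0 (4488 at an unadjusted p under 0.05). Over the lists, leaving out 1 replicate gave 0 to 109 lower and 0 to 40 higher, DESeq2 gave 31 higher (23.4% of all genes), and the summed libraries 0 and 0. The log2 fold changes of Tcf4 (-0.31) and Itgam (0.79), neither of them called, reversed without replicate 1 and were then called (edgeR adjusted p = 0.0120 and 0.00178), with leave-one-out ranges of -0.61 to 0.21 for Tcf4 and -0.28 to 1.56 for Itgam, and the cause was not tested. Counts of 0 to 12 in each Qtracker positive library limit Ncr1, Klrb1c, Prf1, Gzma, Klrd1 and Eomes, and Gzmb had 1 and 2 counts in replicates 2 and 3, so a few reads set the size of these folds.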
